A study of Caenorhabditis elegans with 6 samples.

Results

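The genes described here encode the protein network beneath the plasma membrane of animal cells and its linkers in the nematode Caenorhabditis elegans. They are 6 of the 46932 genes in the count table, chosen by their WormBase symbols and not by their counts: spc-1, unc-70, sma-1, unc-44, vab-10 and erm-1. RNA came from fluorescence-sorted cells of young adult males, which the labels assign to the rectal valve and the rectal gland. The 3 wild-type libraries carried a csr-1a allele tagged with gfp::sl2::2xflag::aid, and the 3 csr-1a mutant libraries carried the same tagged allele with a csr-1a deletion (csr-1a_delta). Loss of CSR-1A, an isoform of an Argonaute protein that binds small RNAs, is what separates the groups by label. Both groups shared the him-8 background, which raises the share of males, and the extrachromosomal arrays pnc-1p::wrmScarlet and pcs-1p::wrmScarlet, whose red protein marked the cells for sorting. Extrachromosomal arrays can be lost from cells, and their promoters need not be active in a single cell type. All parents, in both groups, had been put under heat stress as late L4 larvae. Each library came from 5000 sorted cells. The replicates are labelled biological, but no separate cultures are named, so p-values rest on the spread among these libraries.

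Spectrin is a long flexible rod made of alpha and beta subunits that pair side by side and then end to end. The rods cross-link short actin filaments into an elastic lattice under the membrane. In C. elegans spc-1 encodes the only alpha spectrin, while unc-70 encodes the conventional beta spectrin and sma-1 the larger beta heavy spectrin, which acts at the apical side of epithelia such as the epidermis, pharynx and excretory canal. Ankyrin, encoded by unc-44, ties beta spectrin to membrane proteins. The spectraplakin gene vab-10 encodes both plakin-type isoforms, which hold the epidermis to its hemidesmosomes, and isoforms that bind actin and microtubules. ERM proteins such as ERM-1 join membrane proteins to actin at apical surfaces, best known in the worm's intestine and excretory canal.

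Total counts ran from 17748698 to 47890863 per library, of which ribosomal RNA took 74.4% to 78.4%, leaving 4542195 to 11541671 counts for other genes. Genes with a count numbered 12757 to 19083, fewest in wild-type replicate 3 and mutant replicate 2. The targeted gene csr-1, counted over all isoforms, stood at 185, 209 and 266 CPM (counts scaled to library size) in wild type and 184.5, 157 and 153 CPM in the mutant (edgeR adjusted p = 0.213), and does not check the deletion. The genes whose promoters drive the sorting arrays were higher in the mutant, pnc-1 at 7.17 ± 2.20 against 22.9 ± 6.41 CPM (mean ± SD, n = 3, edgeR adjusted p = 0.00616) and pcs-1 at 13.3 ± 3.13 against 30.3 ± 10.4 CPM (edgeR adjusted p = 0.0258). Dropping the first wild-type, the second wild-type or the first mutant library ended the pcs-1 call (edgeR adjusted p = 0.0965, 0.0759 and 0.0691), and dropping both libraries of fewest genes ended that of pnc-1 (0.0738). Of 11 markers of the rectal cells 8 had enough counts to be tested, egl-38, mab-9 and dct-5 did not, and mab-9 had no count in any mutant library. The list, which holds pnc-1 and pcs-1, took 0.0109% to 0.0154% of non-ribosomal counts in wild type and 0.0256% to 0.0336% in the mutant. Without that pair, left out after its values were seen, the other 9 markers took 0.00445% to 0.00669% and 0.00463% to 0.00979%, so the groups overlapped. Of the 6 tested 0 were called, beside 5.59% of all tested genes, too few genes to read as a result. The lowest of them, nhr-67, stood at a mean of 0.13 CPM in wild type. The 8 coelomocyte markers took 1.63% to 1.68% in wild type and 0.752% to 1.14% in the mutant. Of these scavenger cells' genes, cubn-1 and cup-4 stood at 1824 and 981 CPM in wild type and 950 and 558 CPM in the mutant. Of the 8 markers 0 were called higher and 6 lower, beside 4.04% and 1.55% of all tested genes. Without both libraries of fewest genes 0 of them were called, when 56 genes in all were called lower. The share of the rectal list was far below that of the coelomocyte list in both groups. A list's share depends on which genes it holds, so these shares do not give numbers of cells. The 20 body wall muscle markers took 0.296% to 0.364% in wild type and 3.95% to 8.69% in the mutant, with none at 0 in either group. Excretory canal markers took 0.0221% to 0.0262% and 0.0256% to 0.0285%, and germline and sperm markers 0.00936% to 0.0362% and 0.0235% to 0.0414%.

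**Figure D1:**
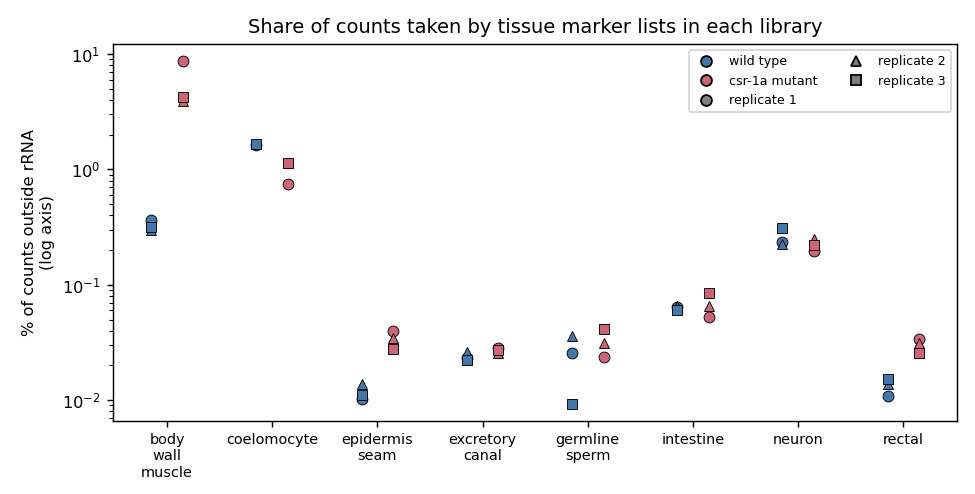
Share of non-ribosomal counts (percent, log axis) taken by each tissue marker list, with 1 point per library, blue for wild type and red for the csr-1a mutant. Body wall muscle markers lie between 0.296% and 0.364% in wild type and between 3.95% and 8.69% in the mutant, and coelomocyte markers are lower in every mutant library than in any wild-type library.

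All 6 genes were counted in every library and passed the low-count filter. Their counts ran from 598 for erm-1 to 18151 for unc-44 in single libraries, so that counting error alone was 0.742% to 4.09% of a value. Together they took 0.36%, 0.381% and 0.413% of the non-ribosomal counts of wild-type replicates 1, 2 and 3. In mutant replicates 1, 2 and 3 they took 0.554%, 0.516% and 0.485%, and the groups did not overlap. Levels below are CPM after scaling by the trimmed mean of M values, as mean ± SD of 3 libraries. Changes are log2 fold changes, mutant over wild type, ± standard error. The test was the quasi-likelihood test of edgeR, adjusted by Benjamini-Hochberg over 11968 genes, with a threshold of 0.05.

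None of the 6 genes passed the threshold, beside 5.59% of all tested genes, too few genes to read as a result. The 2 beta spectrin genes came closest, fitted at 1.55 (unc-70) and 1.51 (sma-1) times the wild-type level, followed by ankyrin at 1.33 times. Alpha spectrin, the spectraplakin and the ERM linker overlapped between the groups. Of the 6 genes 3 lay at an unadjusted p under 0.05 in edgeR's test, against 16.9% of all tested genes. The same 3 were higher in every mutant library than in any wild-type library, which held for 12.6% of all tested genes, while 12.2% were lower in every mutant library and 24.8% were apart in either direction. The median change was 0.30 over the 6 genes and 0.01 over all genes tested. Without wild-type replicate 3 and mutant replicate 2, the libraries with the fewest genes detected, the log2 fold changes were 0.84 for unc-70 (adjusted p = 0.117), 0.69 for sma-1 (0.141), 0.62 for unc-44 (0.138) and 0.43 for spc-1 (0.372). For vab-10 the change was then -0.05 (0.945) and for erm-1 0.0765 (0.905).

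The beta spectrin gene unc-70 (WBGene00006803, WBcel235 chromosome V, 6881338 to 6891839, plus strand) stood at 141, 132 and 162 CPM in wild-type replicates 1, 2 and 3 and at 285, 201.5 and 188.5 CPM in mutant replicates 1, 2 and 3. Every mutant library lay above every wild-type library, and mutant replicate 1 was the highest. The means were 145 ± 15.4 and 225 ± 52.1 CPM, a log2 fold change of 0.63 ± 0.18 with a 95% interval of 0.24 to 1.03 (adjusted p = 0.0684). The gene was called by DESeq2 (adjusted p = 0.0265), limma-voom (0.0487), library totals alone (0.0349), no low-count filter (0.000783) and a filter of 5 CPM in 3 libraries (0.032), and over all 17 alternatives the adjusted p ran from 0.000783 to 0.209. Of all genes with an adjusted p, DESeq2 called 9.42%, limma-voom 4.78%, library totals alone 5.53%, no low-count filter 4.46% and the filter of 5 CPM 12.4%. Without mutant replicate 1 the log2 fold change was 0.44 (adjusted p = 0.0684). That library also had the highest share of muscle markers, 8.69% against 3.95% and 4.26% in mutant replicates 2 and 3. It was the highest library for spc-1, sma-1 and unc-44 as well, whose log2 fold changes without it were 0.07, 0.55 and 0.35. The part of muscle RNA in the values of these genes and of unc-70 was not tested. In such bulk samples, more or fewer cells of a type and more or less RNA per cell cannot be told apart.

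The beta heavy spectrin gene sma-1 (WBGene00004855, chromosome V, 11899449 to 11916623, plus strand) stood at 50.2, 70.3 and 58.2 CPM in wild-type replicates 1, 2 and 3. In mutant replicates 1, 2 and 3 it stood at 96.8, 80.5 and 93.2 CPM. The groups again did not overlap, and the order of the mutant libraries was another than for unc-70, with replicates 1 and 3 close together. The means were 59.6 ± 10.1 and 90.2 ± 8.57 CPM, a log2 fold change of 0.60 ± 0.17 with a 95% interval of 0.23 to 0.96 (adjusted p = 0.063). It was called by DESeq2 (adjusted p = 0.0222), limma-voom (0.0473), no low-count filter (0.0131) and a filter of 5 CPM in 3 libraries (0.0237), and over all 17 alternatives the adjusted p ran from 0.0131 to 0.279. Among all tested genes, 20.2% had a higher log2 fold change than unc-70 and 21.3% a higher one than sma-1.

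The alpha spectrin gene spc-1 (WBGene00004951, chromosome X, 3117439 to 3127079, minus strand) stood at 189.5, 193 and 258 CPM in wild-type replicates 1, 2 and 3 and at 290.1, 232 and 212 CPM in mutant replicates 1, 2 and 3. Wild-type replicate 3 was above mutant replicates 2 and 3, so the groups overlapped. The means were 214 ± 38.6 and 245 ± 40.5 CPM, a log2 difference of 0.20 ± 0.17 (adjusted p = 0.688). The 95% interval of -0.19 to 0.58 ended just below the change measured for the beta spectrins. It overlapped their own intervals, 0.24 to 1.03 for unc-70 and 0.23 to 0.96 for sma-1.

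The ankyrin gene unc-44 (WBGene00006780, chromosome IV, 5975557 to 6004857, plus strand) stood at 244, 224 and 315.5 CPM in wild-type replicates 1, 2 and 3 and at 381, 341 and 318.5 CPM in mutant replicates 1, 2 and 3. The lowest mutant library lay just above the highest wild-type library. The means were 261 ± 48.0 and 347 ± 31.7 CPM, a log2 fold change of 0.41 ± 0.16 with a 95% interval of 0.05 to 0.76 (adjusted p = 0.209). The gene has 9 annotated transcripts, with coding sequences from 317 to 6994 codons, and the counts do not separate the giant isoforms known from axons from the short ones. UNC-44 is best known in neurons, and the 14 pan-neuronal markers took 0.227% to 0.308% of non-ribosomal counts in wild type and 0.196% to 0.249% in the mutant. Of these 14 markers 0 were called higher and 1 lower in the mutant, beside 4.04% and 1.55% of all tested genes. At an unadjusted p under 0.05 in edgeR's test stood 5, beside 16.9% of all tested genes. Of those 5 only unc-31, named after its value was seen, was higher, with overlapping groups (log2 fold change 0.90 ± 0.37). The list median was -0.27, and 4 of the 14 markers had a positive change, beside 50.5% of all tested genes. The part of neuronal RNA in the unc-44 values was not tested.

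The spectraplakin gene vab-10 (WBGene00006876, chromosome I, 11747424 to 11804991, minus strand) stood at 251, 241 and 277 CPM in wild-type replicates 1, 2 and 3 and at 253, 271 and 209.6 CPM in mutant replicates 1, 2 and 3. The highest library was a wild-type one and the lowest a mutant one, and the others lay between them in mixed order. The means were 256 ± 18.4 and 245 ± 31.7 CPM, a log2 fold change of -0.07 ± 0.15 whose sign turned with library totals alone (0.042), and the 95% interval was -0.39 to 0.25 (adjusted p = 0.899). The interval leaves out a change as large as that measured for unc-70 or sma-1. Its upper end lies just above the lower ends of their own intervals, 0.24 and 0.23. The gene spans 57568 bp with 14 annotated transcripts, so a shift between its plakin-type and microtubule-binding isoforms could not be seen in these counts.

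The ERM gene erm-1 (WBGene00001333, chromosome I, 5284026 to 5291604, minus strand) had the lowest counts of the 6 genes. It stood at 33.3, 37.9 and 35.3 CPM in wild-type replicates 1, 2 and 3 and at 37.1, 26.8 and 36.0 CPM in mutant replicates 1, 2 and 3. Mutant replicate 2 was alone at the low end, and the other 5 libraries lay close together. The means were 35.5 ± 2.32 and 33.3 ± 5.68 CPM, a log2 fold change of -0.09 ± 0.18 with a 95% interval of -0.48 to 0.30 (adjusted p = 0.882). Without mutant replicate 2 the log2 fold change was 0.10. Intestinal markers, whose cells are the best known site of ERM-1, took 0.0601% to 0.0654% of non-ribosomal counts in wild type and 0.0523% to 0.0852% in the mutant.

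**Figure D2:**
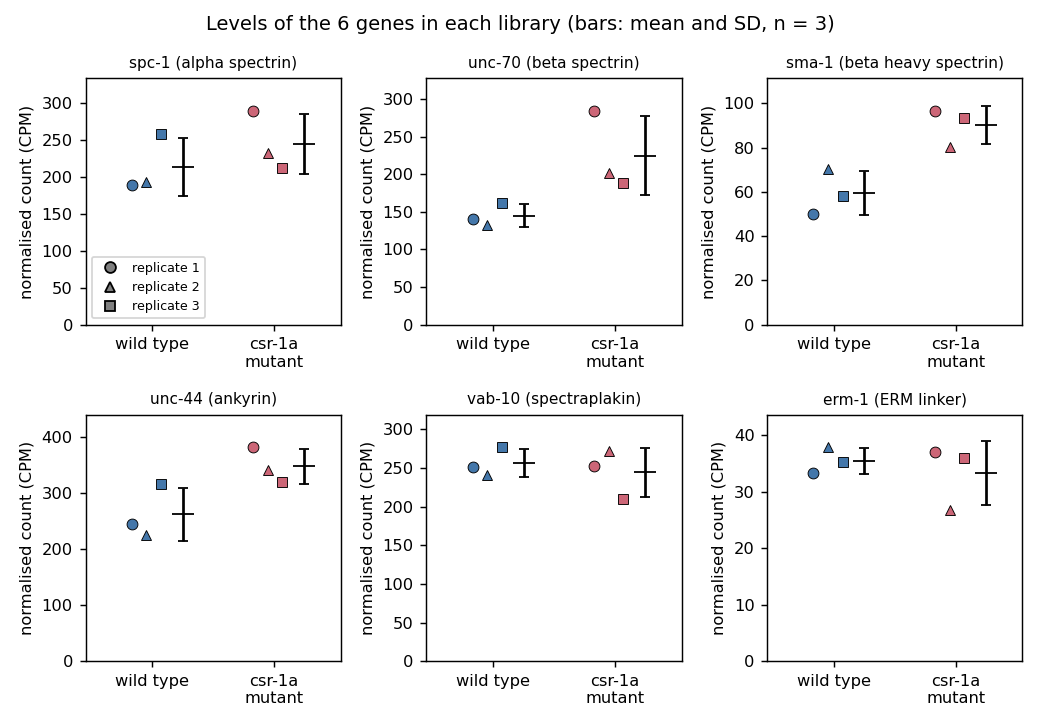
Normalised counts (CPM, from 0) of each of the 6 genes in every library, with symbols for the replicate numbers and black bars for mean and SD (n = 3). The wild-type and mutant points are apart for unc-70, sma-1 and unc-44 and overlap for spc-1, vab-10 and erm-1.

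**Figure D3:**
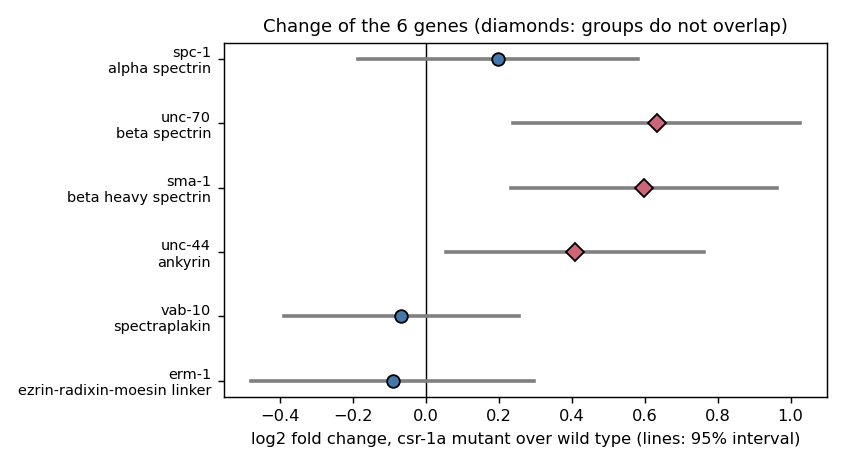
Log2 fold change of mutant over wild type for each gene with its 95% interval, with diamonds where the groups do not overlap. The intervals of unc-70, sma-1 and unc-44 lie above 0, but none of the adjusted p-values is under 0.05.

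Levels of different genes were compared per kilobase of exon. In wild type spc-1 was the most abundant at 27.3 ± 4.94 CPM per kilobase, followed by unc-70 at 16.8 ± 1.79, erm-1 at 14.6 ± 0.953, unc-44 at 11.4 ± 2.09, vab-10 at 10.6 ± 0.765 and sma-1 at 4.55 ± 0.772. The libraries of spc-1 lay above those of unc-70, and those of vab-10 above those of sma-1, whereas the neighbours unc-70 and erm-1, erm-1 and unc-44, and unc-44 and vab-10 overlapped. The spc-1 level per kilobase exceeded that of 94.7% of tested genes, and the sma-1 level that of 67.3%. In the mutant the order was spc-1 at 31.3 ± 5.18 CPM per kilobase, unc-70 at 26.02 ± 6.03, unc-44 at 15.1 ± 1.38, erm-1 at 13.7 ± 2.33, vab-10 at 10.2 ± 1.31 and sma-1 at 6.88 ± 0.654. There unc-70 stood apart from unc-44, and vab-10 from sma-1, while the other neighbours overlapped. The place of vab-10 depends on the length used, because its exons together cover 24099 bp but its longest transcript only 15218 bp, and with the latter its wild-type level was 16.8 CPM per kilobase.

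Since spectrin rods pair alpha with beta subunits, the balance of their RNAs was compared within each library, which cancels the scaling between libraries. Together unc-70 and sma-1 amounted to 0.83, 0.837 and 0.703 of the spc-1 level per kilobase in wild-type replicates 1, 2 and 3. In mutant replicates 1, 2 and 3 they amounted to 1.09, 0.992 and 1.07. Every mutant library was above every wild-type library. The ratio was near 1 in the mutant, but its absolute level rests on exon lengths and on even coverage along transcripts, which was not checked. The mean ratio was 0.79 ± 0.0753 in wild type and 1.049 ± 0.0505 in the mutant, 1.33 times as high (two-sided exact permutation test, p = 0.1, the smallest that 3 against 3 libraries allow; 0.25 when adjusted over 5 ratios). The ratio of unc-70 alone to spc-1 went from 0.62 ± 0.0517 to 0.826 ± 0.0547 with no overlap, while that of sma-1 to spc-1, at 0.17 ± 0.0426 and 0.223 ± 0.0346, overlapped; both were added after the values were seen and were not tested.

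The other ratios differed less. By replicate number, the ratio of sma-1 to unc-70 was 0.236, 0.351 and 0.237 in wild type. In the mutant it was 0.224, 0.264 and 0.326, which overlaps with wild type (exact permutation p = 1). The ratio of unc-44 to unc-70 was 0.675 ± 0.0503 in wild type and 0.592 ± 0.0766 in the mutant (exact permutation p = 0.1, adjusted 0.25). Its groups did not overlap, but wild-type replicate 2 at 0.639 and mutant replicates 2 and 3 at 0.637 and 0.636 were nearly equal. The log2 difference of this ratio was -0.19, and fell in size to -0.08 without mutant replicate 1 (exact permutation p = 0.5) and to -0.13 without wild-type replicate 3 (p = 0.5, exact); with single libraries left out it ran from -0.25 to -0.08. The ratio of vab-10 to spc-1 was 0.394 ± 0.0423 and 0.328 ± 0.0485, and that of erm-1 to spc-1 was 0.544 ± 0.0971 and 0.442 ± 0.0914. Both overlapped between the groups (exact permutation p = 0.2 for each, adjusted 0.25). With single libraries left out their log2 differences ran from -0.38 to -0.17 around -0.27 for vab-10 and from -0.46 to -0.19 around -0.30 for erm-1; the lowest in size came without mutant replicate 1 for vab-10 and without mutant replicate 2 for erm-1.

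**Figure D4:**
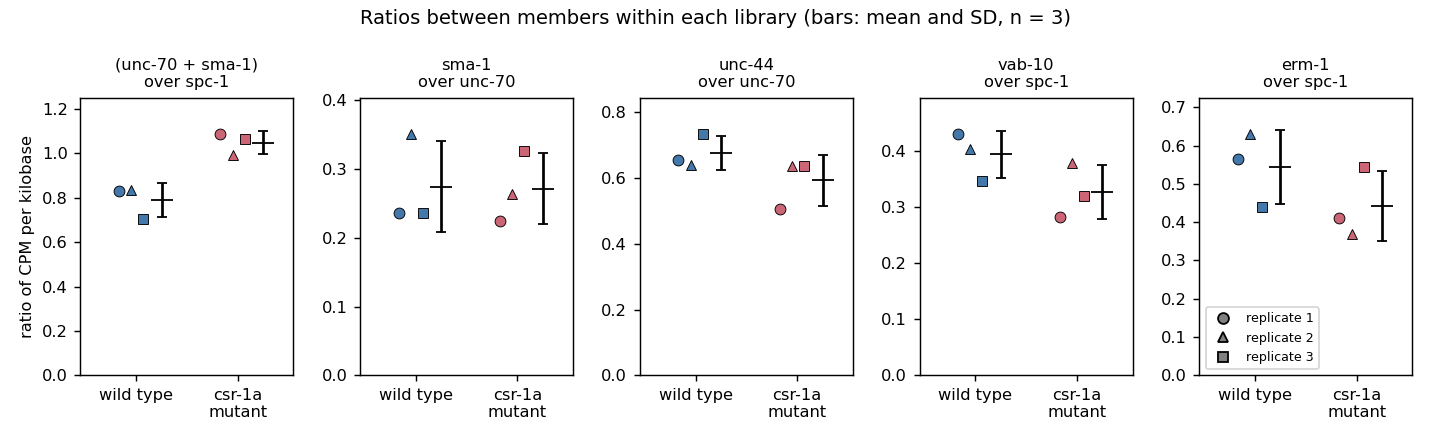
Ratios of CPM per kilobase between members within each library (from 0), with black bars for mean and SD (n = 3). Beta spectrins over alpha spectrin lie between 0.703 and 0.837 in wild type and between 0.992 and 1.09 in the mutant, while the ratio of sma-1 to unc-70 overlaps between the groups.

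The wider membrane skeleton was read from 6 lists of 63 related gene names, of which 58 genes were tested. Of these, 9 were higher and 0 lower in the mutant, beside 4.04% higher and 1.55% lower among all genes tested, and their median change was 0.30. All 9 were in 3 of the lists, described next.

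Other proteins with spectrin-type repeats had the highest median change of the lists, 2.28. Of 4 tested 3 were higher and 0 lower, beside 4.04% and 1.55% of all tested genes. The dystrophin gene dys-1, which links actin to the muscle membrane, stood at 15.9, 17.3 and 14.5 CPM in wild-type libraries and 269, 125 and 135 CPM in the mutant, a log2 difference of 3.47 ± 0.29 (adjusted p = 9.35e-05). The alpha-actinin gene atn-1, which cross-links actin at dense bodies of muscle and is also on the muscle marker list, changed by 3.50 ± 0.35 on the log2 scale (adjusted p = 0.000216). The giant nesprin gene anc-1, which anchors nuclei to actin, stood at 93.8 ± 11.1 and 199 ± 73.1 CPM, a log2 difference of 1.09 ± 0.23 (adjusted p = 0.0179), a call lost without wild-type replicate 1, 2 or 3 (0.0514, 0.0556 and 0.0538) and without both libraries of fewest genes (0.056). The fourth gene, unc-73, encodes the Trio-type exchange factor and had a log2 fold change of 0.32 ± 0.18. In the same libraries 19 of 20 muscle markers were higher and 0 lower, beside the same 4.04% and 1.55%. Their median log2 fold change was 3.88, and they were led in level by unc-54 (249 ± 28.8 to 4058 ± 2117 CPM) and unc-22 (129 ± 14.7 to 1806 ± 928 CPM).

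Among 15 tested proteins with a FERM domain, the membrane-binding fold of ERM-1, 4 were higher and 0 lower, with a list median of -0.08. Of all tested genes 4.04% were higher and 1.55% lower. The gene frm-3 went from 4.37 ± 0.0784 to 21.2 ± 6.2 CPM, a log2 difference of 2.28 ± 0.26 (adjusted p = 0.000503). The phosphatase gene ptp-1 was at 5.76 ± 0.766 CPM in wild-type and 20.6 ± 7.94 CPM in mutant libraries (log2 change 1.85 ± 0.29, adjusted p = 0.00335). The talin gene tln-1, which links integrin to actin in muscle attachments, stood at 75.4, 71.1 and 79.0 CPM in wild-type libraries and 337, 159 and 155 CPM in the mutant (change on the log2 scale 1.53 ± 0.27, adjusted p = 0.00616). The fourth, frm-1, fell outside the naming rule and was named after its value was seen, with 153 ± 15.6 CPM in wild-type libraries and 268 ± 62.1 CPM in the mutant (change on the log2 scale 0.80 ± 0.18, adjusted p = 0.0225). It missed the threshold when either the first or the third wild-type library was dropped (adjusted p = 0.0991 and 0.0973), when the pair of libraries with fewest genes was dropped (0.092) and with the replicate block (0.0515). For all 4 genes mutant replicate 1 was the highest library, as it was for the muscle marker share, whose part in these values was not tested. The merlin gene nfm-1, the closest relative of ERM proteins on the list, had a log2 fold change of -0.08 ± 0.26.

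In the hemidesmosome linkage plakin-type VAB-10 joins the epidermal receptors to intermediate filaments. Of its 8 tested genes 2 were higher and 0 lower, beside 4.04% and 1.55% of all tested genes, and the list median was 0.48. The perlecan gene unc-52, a basement membrane protein between muscle and epidermis, went from 22.2 ± 4.99 to 128 ± 66.5 CPM (log2 fold change 2.52 ± 0.33, adjusted p = 0.00102). The intermediate filament gene ifb-1 went from 14.0 ± 2.32 to 29.9 ± 6.16 CPM (1.10 ± 0.22, adjusted p = 0.0136), and its call was lost without wild-type replicate 1 (0.0643) and without both libraries of fewest genes (0.0653). The receptor gene let-805, which encodes myotactin, stood at 28.6 ± 8.51 and 38.7 ± 11.2 CPM (log2 difference 0.44 ± 0.26, adjusted p = 0.473). Epidermal and seam markers took 0.0103% to 0.0138% of non-ribosomal counts in wild type and 0.0279% to 0.0397% in the mutant. Of 7 tested 1 was higher and 0 lower, beside 4.04% and 1.55% of all tested genes. The untested nhr-73 was at 0 in both groups, and the untested dpy-7 at 0 in wild type alone. The higher gene was rol-6, a cuticle collagen, at 16.8 ± 5.46 and 63.1 ± 17.9 CPM (log2 fold change 1.91 ± 0.28, adjusted p = 0.00206). Without rol-6, left out after its values were seen, the other 11 markers took 0.00343% to 0.00613% in wild type and 0.0062% to 0.00716% in the mutant.

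No member of the other 3 lists passed edgeR's test, beside 5.59% of all tested genes, too few genes to read as a result. For the counts below, 16.9% of all tested genes had an unadjusted p under 0.05, DESeq2 called 9.42% and limma-voom 4.78%, or 572 of 11968. Of 11 tested partners of spectrin, ankyrin and ERM proteins, 0 were called. Their median change was 0.31, and 8 were positive, beside 50.5% of all tested genes. At an unadjusted p under 0.05 in edgeR's test stood 3, DESeq2 called 1 and limma-voom 0. The partners named next were chosen after their values were seen. The scaffold gene nrfl-1, an NHERF-type partner of ERM-1, stood at 118, 123 and 139 CPM in wild-type libraries and 81.7, 103 and 78.5 CPM in the mutant (change on the log2 scale -0.53 ± 0.16, adjusted p = 0.0802). The L1-type adhesion gene sax-7, whose product binds UNC-44, stood at 70.6, 76.5 and 63.1 CPM in wild-type libraries and 92.3, 97.01 and 87.8 CPM in the mutant (change on the log2 scale 0.40 ± 0.14, adjusted p = 0.158). Both were apart between the groups, as were 4 of the 11 partners in all and 24.8% of all tested genes. The adducin genes add-1 and add-2, whose products cap actin in the spectrin lattice in other animals, were near 2 CPM in wild type, at 1.70 ± 0.432 and 2.01 ± 0.886 CPM, with log2 fold changes of 0.76 ± 0.46 and 0.06 ± 0.63. Of 11 genes of embryonic elongation and actomyosin contractility 0 were called, with a median of -0.23; 3 stood at an unadjusted p under 0.05 in edgeR's test, and DESeq2 and limma-voom each called 2. Of 9 apical junction genes 0 were called, with a median of 0.07; 1 stood at an unadjusted p under 0.05 in edgeR's test, DESeq2 called 1 and limma-voom 0.

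**Figure D5:**
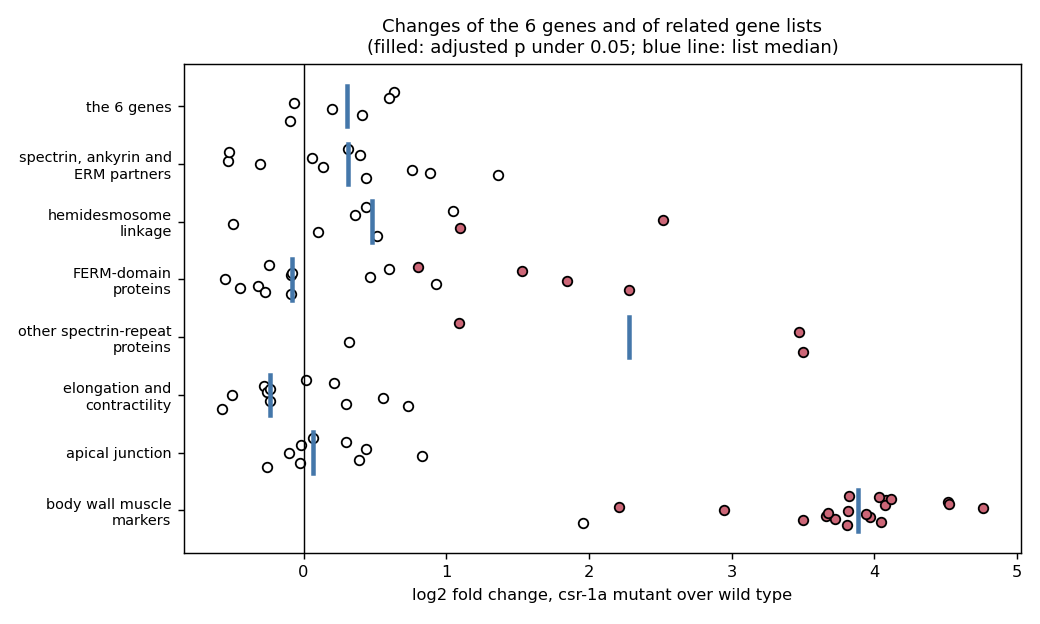
Log2 fold changes of mutant over wild type for the 6 genes, the 6 related lists and the muscle markers, with 1 point per tested gene, filled where the adjusted p is under 0.05, and a blue line at each median. The 6 genes lie between -0.09 and 0.63, and the filled points of related lists are dys-1, atn-1, anc-1, frm-3, ptp-1, tln-1, frm-1, unc-52 and ifb-1.

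The genes most like each member over the 6 libraries were taken from 1717 other genes averaging 20 CPM or more, by Pearson's correlation of log2(CPM + 1). These points share libraries and fall into the groups compared, so the values are descriptions. The pattern of unc-70 was most like that of kin-2, the regulatory subunit of protein kinase A (r = 0.997), and anc-1 (r = 0.996), and 205 genes reached 0.9. For sma-1 they were M60.4 (0.963) and the Rab exchange factor gene rin-1 (0.958), and 36 genes reached 0.9. The spc-1 pattern was most like those of daf-5, a Ski-type regulator (0.982), and pyk-1, a pyruvate kinase (0.978). For unc-44 they were the neprilysin gene nep-26 (0.976) and the junction scaffold gene dlg-1 (0.969). For vab-10 they were the phosphatase gene vhp-1 (0.968) and the signal recognition particle receptor gene srpr-1.1 (0.967). For erm-1 they were the ribosomal protein gene rps-3 (0.938) and the Rap exchange factor gene pxf-1 (0.935), with 4 genes reaching 0.9.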

How the data were processed

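RNA-seq libraries of 3 wild-type and 3 csr-1a mutant samples were analysed. The authors deposited raw read counts per gene, not normalised; per the submitters' processing notes their tools were STAR, DESeq2, featureCounts, fastp (0.20.1) and Subread (2.0.0), whose order is not stated. Not given in the sources used here were the build, the annotation and any strand setting, so antisense reads may be included; genes overlapping the exons of the 6 genes had at most 74 counts in all libraries together. Symbols, coordinates (1-based) and exon lengths came from WBcel235 (Ensembl release 115) by WormBase identifier, found for 46919 of 46932 identifiers. All 6 members matched; 3 of 154 list names (tmd-1, ifa-2 and frm-9) did not. No pair of libraries of a group agreed within sampling noise (chi-square per degree of freedom at least 8.76).

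The deposited counts entered edgeR 4.0.16 (R 4.3.3): filterByExpr (minimum count 10, minimum total 15), TMM scaling (trimmed mean of M values) and the quasi-likelihood test with robust=TRUE on the group alone. Intervals are 95% intervals of that fit. Ribosomal RNA stayed in the totals. In simulated counts on 11189 genes the procedure called 41 of 100 genes changed 2-fold, 94 of 100 changed 4-fold and 11 of 10989 unchanged genes. CPM per kilobase used the union of exons. Ratios were compared by two-sided exact permutation tests over libraries. The members, lists and tests were chosen with earlier results of these data known. Named are the 6 genes, csr-1, the sort reporters' genes pnc-1 and pcs-1, and up to 3 called genes of each related list by smallest adjusted p. Also named are 2 genes most like each member and at most 2 of each marker list by level. The genes unc-73, let-805, nfm-1 and others said to be so were named after their values were seen. Of the marker genes without enough counts, only the rectal ones, nhr-73 and dpy-7 are named. Alternatives were other scalings, filters and tools (DESeq2 1.42.0, limma-voom with limma 3.58.1), a replicate block, ribosomal RNA or muscle genes left out, and libraries left out.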

Additional observations from a re-analysis of the deposited data

How the results depend on the processing

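Over 17 alternatives the log2 fold changes ran from 0.44 to 0.84 for unc-70, 0.53 to 0.73 for sma-1, 0.30 to 0.62 for unc-44 and 0.07 to 0.43 for spc-1. For unc-70 the change passed the threshold with DESeq2 (0.64), limma-voom (0.65), totals without scaling factors (0.73), all genes with a count kept (0.67) and a filter of 5 CPM in 3 libraries (0.74). For sma-1 it passed with no low-count filter (0.62), the filter of 5 CPM (0.69), DESeq2 (0.60) and limma-voom (0.62). The sign turned for vab-10 with library totals alone (0.042) and the filter of 5 CPM (0.0301), and for erm-1 with that filter (0.00515) and without both libraries of fewest genes (0.0765). With single libraries left out the log2 fold change ran from -0.12 to 0.0732 for vab-10 and -0.17 to 0.10 for erm-1, and the log2 difference of the sma-1 to unc-70 ratio from -0.15 to 0.18 around -0.01. No other ratio turned its sign. Library totals alone moved the median of all genes from 0.01 to 0.11. The cause of these differences was not tested.

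The count of changed genes was 669, 484 higher and 185 lower. It was 1048 (727 and 321) with no low-count filter and 1062 (701 and 361) with DESeq2. The lower genes numbered 89 with library totals alone and 56 without both libraries of fewest genes. With single libraries left out 416 to 697 genes were called, 39 to 151 of them lower. With the replicate block 557 genes were called, with log2 fold changes of 0.61 for unc-70 (adjusted p = 0.119) and 0.61 for sma-1 (0.128), and no call of the 6 genes changed. The labels do not state a pairing by replicate number. Deviations of same-numbered libraries correlated at 0.04, -0.06 and -0.24 over 4943 genes. Those of differently numbered libraries correlated at -0.14 to 0.24, so these values do not settle whether the libraries are paired. In simulated counts 41 of 100 genes changed 2-fold were called, but these genes covered many levels and had the spread typical of their level. That share is therefore not the rate for the 6 genes, whose standard errors were 0.15 to 0.18. Smaller changes were not simulated, and the 6 adjusted p-values do not show that levels were equal.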
